A study of Mus musculus with 25 samples.

Results

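The genes described here are 40 markers of blood and lymphatic endothelium, together with the angiogenic ligands that act on these cells, among the 35880 genes of a count table from mouse embryonic mesenchyme. They were chosen by symbol, and each symbol matched 1 Ensembl identifier of the table. The set holds 17 junction, surface and secreted genes of blood endothelium, 6 endothelial receptors, 7 endothelial transcription factors, 4 lymphatic genes and 6 ligands. The first 3 groups, 30 genes, are called blood endothelial genes below, although Cd34, Ets1 and several others are also known from other cells.

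Blood vessels grow into embryonic mesenchyme mainly by sprouting. VEGF-A acts on the receptor VEGFR2, encoded by Kdr, and the angiopoietins act on TIE2, encoded by Tek, to shape and stabilise the sprouts. Lymphatic vessels arise from venous endothelium when cells switch on Prox1, and they grow towards VEGF-C, the ligand of VEGFR3, which Flt4 encodes. The skin and the mammary region carry both vessel types, and the fat pad precursor is the tissue into which the mammary ducts later grow.

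RNA-Seq libraries came from 25 pools of mesenchyme of embryos of the inbred line C57Bl/6JOlaHsd, for which the labels name no mutation or treatment, with 5 pools for each of 5 tissues. The tissues were the E16.5 fat pad precursor (FP), mammary mesenchyme at E16.5 (MM16) and at E13.5 (MM13), E13.5 ventral skin mesenchyme taken away from the mammary region (VM), and E13.5 salivary gland mesenchyme (SM). Epithelium had been removed from the gland tissues after digestion with Dispase II and then pancreatin and trypsin, so each pool held stroma with its vessels, nerves and blood cells. A pool combined 2 to 3 embryos of a single litter, and the 5 pools of a tissue came from 3 litters, so p-values measure the spread between pools and not between unrelated litters. The E16.5 embryos were labelled female and the E13.5 pools carried no sex, so stage and sex cannot be told apart. Because the tissues were bulk samples, fewer endothelial cells and less RNA per cell cannot be told apart either.

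The pools held 20678150 to 34448304 counts, with a median of 26370369. Defining endothelial genes were present in every pool, with Cdh5 between 2263 and 7602 normalized counts, that is, counts scaled to a common library size. All 40 genes passed the filter on low counts. MM16 replicates 3 and 4 stood apart from the other 3 pools of that tissue in Lyve1, Prox1 and Angpt2. The summed level of 10 skeletal muscle genes ranged from 675 to 7074 CPM (counts scaled by library total) in FP and from 258 to 1017 CPM in MM16, and that of 12 epithelial genes ranged from 18.9 to 133 CPM in MM16, so pools of 1 tissue differed in the other tissues they carried.

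Promoters of members that moved in different ways are shown first, since ERG, FLI1 and ETS1, which are members, belong to the ETS family, whose binding motif is known from many endothelial promoters. RefSeq (GRCm38.p6, the sequence of the mm10 build used for the counts) gave 28 promoters for 21 of the 40 genes. The motif searched was CAGGAA or CCGGAA on either strand, in the 250 bases before the start of transcription, where the base before the start is position -1. Capitals mark it in the promoters of Tek, at chr4:94739039-94739288 (plus strand), and Cd34, at chr1:194938571-194938820 (plus strand), blood endothelial genes called in 4 of 6 comparisons, and of the lymphatic genes Flt4, at chr11:49609429-49609678 (plus strand), and Prox1, at chr1:190169516-190169765 (minus strand).
Tek: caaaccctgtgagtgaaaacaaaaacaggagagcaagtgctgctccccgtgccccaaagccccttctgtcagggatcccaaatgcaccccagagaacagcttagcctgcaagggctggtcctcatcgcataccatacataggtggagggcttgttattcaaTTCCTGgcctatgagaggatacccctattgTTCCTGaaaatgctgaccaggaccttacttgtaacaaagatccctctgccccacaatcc
Cd34: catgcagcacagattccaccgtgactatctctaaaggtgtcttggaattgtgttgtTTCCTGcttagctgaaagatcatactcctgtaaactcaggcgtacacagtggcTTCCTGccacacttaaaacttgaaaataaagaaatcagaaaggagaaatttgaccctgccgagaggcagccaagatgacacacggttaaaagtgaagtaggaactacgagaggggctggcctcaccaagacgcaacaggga
Flt4: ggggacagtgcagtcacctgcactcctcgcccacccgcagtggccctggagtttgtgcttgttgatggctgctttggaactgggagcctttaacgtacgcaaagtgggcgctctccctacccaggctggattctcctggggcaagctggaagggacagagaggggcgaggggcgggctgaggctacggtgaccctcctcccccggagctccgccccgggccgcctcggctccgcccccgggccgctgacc
Prox1: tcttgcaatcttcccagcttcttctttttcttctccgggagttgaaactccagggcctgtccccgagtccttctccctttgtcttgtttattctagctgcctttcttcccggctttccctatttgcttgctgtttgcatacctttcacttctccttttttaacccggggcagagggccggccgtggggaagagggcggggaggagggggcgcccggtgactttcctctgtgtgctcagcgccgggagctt

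In Tek the motif began at -89 and -59, and in Cd34 at -194 and -141, counted at the first base of the match. The promoters of Flt4 and Prox1 shown here held none, and neither did the second Prox1 promoter. Among all 28 member promoters 13 held it, or 46.4%, against 35.1% of the 32851 promoters in the RefSeq table. ACAAT, the core bound by SOX factors, whose match can share bases with an ETS match, as it does at -59 in Tek, stood in 7 of the 28, or 25%, against 27.7% of all promoters. The presence of the ETS motif did not divide the members by their calls, since the promoters of Vegfc, which was called in 4 of 6 comparisons, and of Cldn5, Flt1, Eng and Dll4 also held none, while 1 of the 2 Vegfa promoters held it and Vegfa was called in none. A match in these letters describes the sequence only.

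FP had the highest mean of the 5 tissues for 24 of the 40 genes, MM16 for 7, VM for 6, MM13 for 3 and SM for none. SM had the lowest mean for 28 genes. Summed over the 30 blood endothelial genes, the level was 2335 to 2979 CPM in FP, 2391 to 2846 CPM in MM16, 1711 to 2114 CPM in MM13, 1655 to 1919 CPM in VM and 1114 to 1254 CPM in SM. The E16.5 pools thus did not overlap with the E13.5 pools, and those of SM lay below all others. The 4 lymphatic genes summed to 163 to 215 CPM in FP, 113 to 169 CPM in MM16, 102 to 142 CPM in MM13, 83.2 to 105 CPM in VM and 76.7 to 94.8 CPM in SM, and here neighbouring tissues overlapped at each step. This sum joins genes of unlike order, as Lyve1 and Pdpn had their highest mean in FP, Prox1 in MM13 and Flt4 in VM. Of the 4, Lyve1 alone was called higher in FP, MM16 and MM13 than in SM. A sum without Lyve1 was not taken. The summed level of 16 pericyte and smooth muscle genes, which mark the cells that coat vessels, was 967 to 1384 CPM in FP, 922 to 1233 CPM in MM16, 496 to 612 CPM in MM13, 511 to 573 CPM in VM and 397 to 479 CPM in SM, again with the E16.5 pools above the E13.5 pools. Without Des, a gene of skeletal muscle too, the other 15 summed to 918 to 1059 CPM in FP, 889.5 to 1201 CPM in MM16, 481 to 600.0 CPM in MM13, 490.5 to 539 CPM in VM and 389 to 466 CPM in SM, a sum added after the data were seen, and the E16.5 pools stayed above the E13.5 pools.

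**Figure D1:**
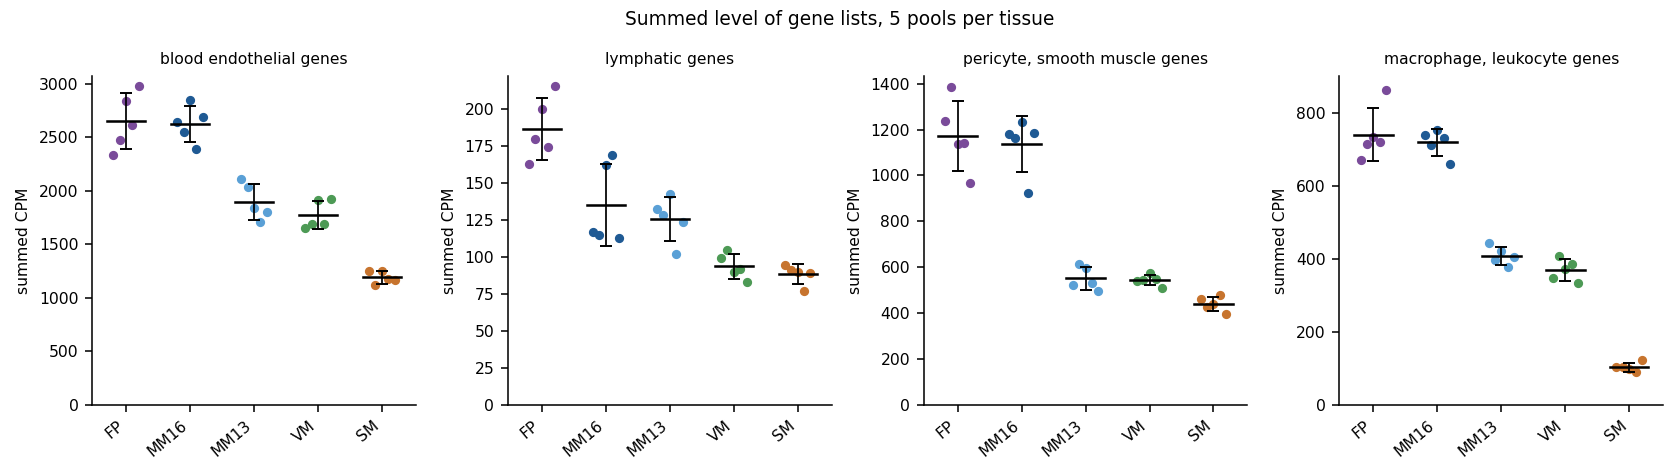
Summed CPM (vertical axes, linear, from 0) of the 30 blood endothelial genes, the 4 lymphatic genes, 16 pericyte and smooth muscle genes and 15 macrophage and leukocyte genes, in 5 tissues (horizontal axis). Points are pools, long bars means and error bars SD over 5 pools. Blood endothelial, pericyte and macrophage sums were higher in the E16.5 tissues than in E13.5 tissues.

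A gene was called when the adjusted p of edgeR's quasi-likelihood test (Benjamini-Hochberg over 17657 genes) was under 0.05, the log2 fold change was at least 0.58 in size and the higher tissue's mean normalized count was above 50. Fold changes are given as log2 ± SE. Of the 40 genes, 22 were higher and 2 lower in MM13 than in SM, where 14.5% of all genes tested were called higher and 15.6% lower. In MM16 30 were higher and 1 lower (all genes, 18.9% and 16.0%), and in FP 27 were higher and 1 lower (all genes, 20.4% and 19.1%). These 3 comparisons share the SM pools. Between MM16 and MM13, 15 genes rose with stage and 3 fell (all genes, 13.0% and 6.76%). FP had 5 genes higher and 2 lower than MM16 (all genes, 6.68% and 7.46%). MM13 had 2 genes higher and 1 lower than VM (all genes, 3.89% and 2.61%), shares close to those over all genes. The median log2 fold change of the 40 genes was 0.66, 0.94 and 0.94 against SM, 0.36 with stage, 0.11 in FP and 0.13 in MM13 against VM, where that of all genes lay between -0.01 and 0.04 in these 6 comparisons.

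**Figure D2:**
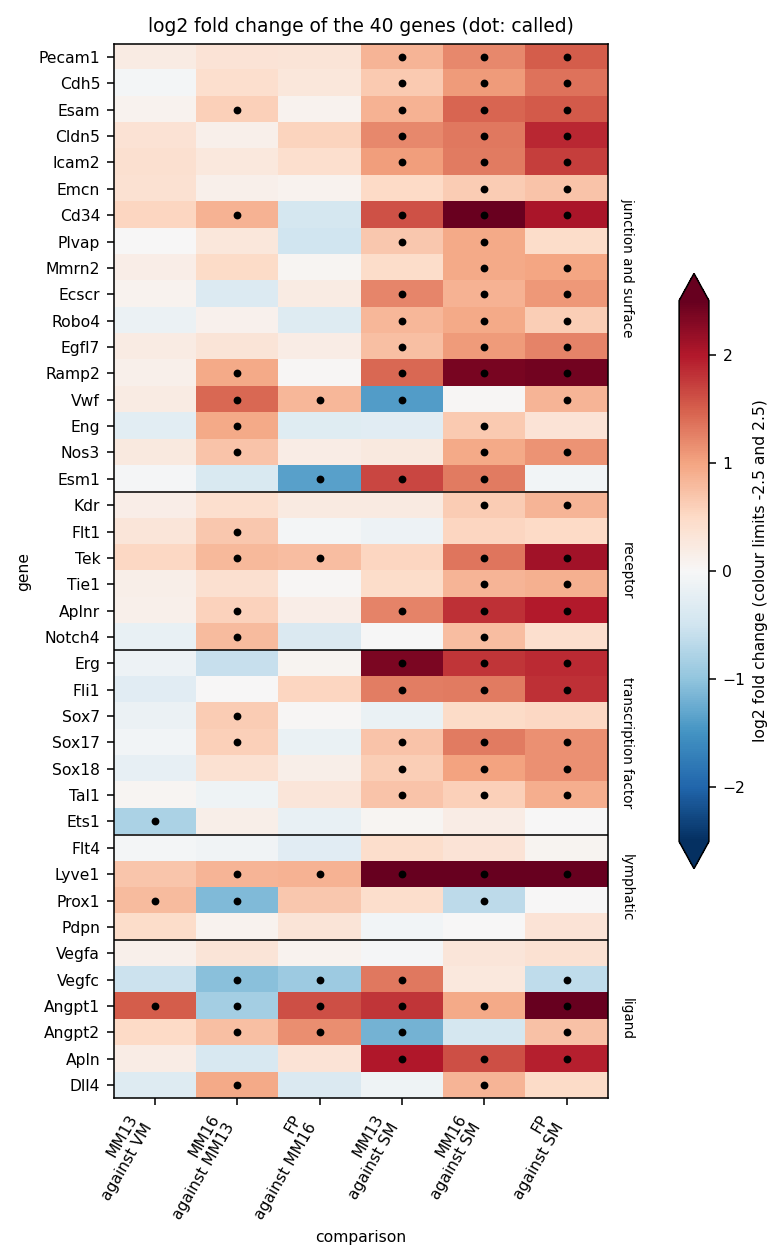
Log2 fold change (colour, limits -2.5 and 2.5, Lyve1 and Angpt1 reach beyond them) of the 40 genes (rows, grouped by role) in 6 comparisons (columns, the first tissue over the second). Dots mark genes called. Most dots lie in the 3 columns against SM, with 22, 30 and 27 genes higher.

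Among the junction and surface genes, Cdh5 encodes VE-cadherin, the adhesion molecule of endothelial junctions, and Pecam1 encodes CD31, the surface protein most used to mark vessels. Cdh5 had 5807, 7090.2, 7602, 6765 and 7359 normalized counts in FP, 5946, 5512, 5734, 4720.4 and 6497 in MM16, 4694, 4216, 4591, 4012 and 3848 in MM13, 5331, 3930.5, 4542, 4039.8 and 4318 in VM, and 2946, 2263, 2765, 3023 and 2602 in SM. Pecam1 had 6242, 6015, 7941, 7263 and 7835 normalized counts in FP, 5778, 5433, 6113, 4769 and 6093 in MM16, 4863, 4710.0, 4402, 4145 and 4125 in MM13, 4122, 3615, 4089, 3564 and 3937 in VM, and 2644, 2377, 2676, 2424 and 2159 in SM. For both genes the SM pools were below those of every other tissue, while FP and MM16 overlapped. Relative to SM, Cdh5 was higher in FP (1.35 ± 0.10, adjusted p = 7.0e-12), in MM16 (1.06 ± 0.10, adjusted p = 7.0e-10) and in MM13 (0.65 ± 0.10, adjusted p = 2.6e-06), and Pecam1 was higher by 1.52 ± 0.09 in FP, 1.20 ± 0.09 in MM16 and 0.86 ± 0.09 in MM13. Between MM13 and VM, Cdh5 was not called (-0.05 ± 0.10, adjusted p = 0.81, 95% interval -0.25 to 0.15). With stage, Cdh5 had 0.41 ± 0.10 and Pecam1 0.34 ± 0.09, adjusted p = 0.0011 and 0.0019, which lay under the fold change a call needed.

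Cd34, a sialomucin of capillary endothelium that embryonic stroma also expresses, was the most abundant of the 40 genes per kilobase of exon in FP, MM16 and MM13, and Cdh5 in VM and SM. Cd34 had 75.2 CPM per kilobase of exon in FP, 102 in MM16, 55.5 in MM13, 38.4 in VM and 18.3 in SM. Cd34 had 14071, 13216, 15451, 14127 and 15979 normalized counts in FP, 19509, 18448, 21198, 20520.3 and 18723 in MM16, 12463, 10215, 10498, 10068 and 10544 in MM13, 7894, 7023, 7798, 7086 and 7427 in VM, and 3662, 3968, 3465, 2834 and 3809 in SM. No 2 tissues overlapped, and it was highest in MM16 and not in FP. It was higher than in SM in FP (2.04 ± 0.08), MM16 (2.47 ± 0.08) and MM13 (1.60 ± 0.08), and rose with stage (0.87 ± 0.08, adjusted p = 3.0e-09). Without Cd34 the sum of the other 29 blood endothelial genes was 1844 to 2379 CPM in FP, 1630.1 to 2059.6 CPM in MM16, 1339 to 1645 CPM in MM13, 1382 to 1634 CPM in VM and 958 to 1106 CPM in SM, so that MM16 now overlapped with the E13.5 skin tissues.

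Esam, a tight junction adhesion molecule of endothelium, and Ramp2, the partner that makes the receptor encoded by Calcrl respond to adrenomedullin, were both higher in the 3 mammary tissues than in SM. Esam had 1422, 1427, 1709.9, 1520.3 and 1780.2 normalized counts in FP, 1360.1, 1577, 1669, 1258 and 1560.2 in MM16, 1189, 1138, 778, 898 and 937 in MM13, 849, 799.6, 1036, 839.8 and 1102 in VM, and 548, 548, 559.8, 543 and 520.4 in SM. Ramp2 had 1696, 1745, 2130.1, 1776 and 2217 normalized counts in FP, 1838, 1931, 2049, 1786 and 1752 in MM16, 1207, 962, 821, 958 and 914 in MM13, 909, 793, 1041, 764 and 929 in VM, and 335, 419, 333, 327 and 395 in SM. Neither gene's E16.5 pools overlapped with the E13.5 pools. Ramp2 rose with stage (0.94 ± 0.10, adjusted p = 5.4e-08), and its log2 fold changes against SM were 2.40 ± 0.11 in FP, 2.37 ± 0.11 in MM16 and 1.43 ± 0.11 in MM13. Esam rose with stage by 0.59 ± 0.11 (adjusted p = 8.2e-05), at the edge of the fold a call needed, and was called in 4 of 10 fits that each left out 1 pool. Its call was lost without any of MM13 replicates 3, 4 and 5 or MM16 replicates 2, 3 and 5. The exons of Ramp2 overlap with Vps25 on the same strand, and those of Egfl7, Eng and Nos3 with a gene on the other strand, so their counts are less certain.

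Vwf, which encodes the von Willebrand factor stored in endothelial cells and platelets, did not follow this order. Vwf had 1355, 1301, 838, 1088 and 874 normalized counts in FP, 616, 493, 747, 619.9 and 597 in MM16, 279, 209, 267, 203 and 184 in MM13, 188, 159, 207, 202 and 233 in VM, and 615, 413, 612, 789 and 591 in SM. FP was above all other tissues, and SM was above MM13 and VM, with no overlap. Vwf rose with stage (1.43 ± 0.16, adjusted p = 1.1e-07) and was higher in FP than in MM16 (0.83 ± 0.16, adjusted p = 1.8e-04), but was lower in MM13 than in SM (-1.40 ± 0.16, adjusted p = 5.7e-08). The summed level of 9 megakaryocyte and platelet genes, the other known source of Vwf, was 45.04 to 50.03 CPM in FP, 46.2 to 62.4 CPM in MM16, 27.2 to 30.6 CPM in MM13, 20.2 to 29.1 CPM in VM and 10.1 to 13.3 CPM in SM, and the part of platelets in the Vwf values was not tested.

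Plvap, which forms the diaphragms of fenestrated endothelium, was highest in MM16. Plvap had 490.5, 642, 654, 593 and 754 normalized counts in FP, 820.0, 850.2, 986, 784 and 968 in MM16, 719.8, 826, 722, 723 and 627 in MM13, 763, 666, 837, 620.3 and 718 in VM, and 447, 433, 444, 487 and 460.0 in SM. It averaged 627 ± 96.0 in FP and 882 ± 90.2 in MM16 (SD, n = 5 each), without overlap, but the log2 difference (-0.49 ± 0.10, adjusted p = 3.4e-04) was under the fold a call needed. Plvap was higher than in SM in MM16 (0.96 ± 0.10) and MM13 (0.67 ± 0.10). Esm1, a proteoglycan of sprouting tip cells, fell in FP, to 35.3 ± 8.03 normalized counts, against 91.3 ± 23.5 in MM16 (-1.37 ± 0.21, adjusted p = 9.4e-06). It averaged 119 ± 5.57 in MM13, 121 ± 17.9 in VM and 37.3 ± 10.1 in SM, so that FP and SM were both low.

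Of the other junction, surface and secreted genes, Cldn5, the claudin of endothelial tight junctions, had 1.88 ± 0.12 in FP against SM, Icam2, an adhesion molecule for leukocytes, 1.74 ± 0.11, and Egfl7, a secreted factor of endothelium, 1.24 ± 0.11. Ecscr, a regulator of endothelial motility, was higher in all 3 mammary tissues than in SM, by 1.21 ± 0.10 in MM13. Robo4, a guidance receptor of endothelium, was so too, by 0.95 ± 0.11 in MM16 and 0.62 ± 0.11 in FP, and Mmrn2, an endothelial matrix protein, and Emcn, the sialomucin endomucin of capillaries and veins, were called in both E16.5 tissues, with 0.94 ± 0.11 and 0.63 ± 0.09 in MM16, and not in MM13, with 0.46 ± 0.11 and 0.50 ± 0.09. The Emcn call in MM16 was lost without MM16 replicate 3, and the Robo4 call in FP without FP replicate 2 or 3. Nos3, the endothelial nitric oxide synthase, and Eng, a co-receptor for BMP9, rose with stage by 0.70 ± 0.13 and 0.94 ± 0.16. In all, 12 of these 17 genes were higher and 1 lower in MM13 than in SM, 16 were higher in MM16 and 14 in FP, while 6 rose with stage, where an unadjusted p under 0.05 was reached by 12 upwards and 1 downwards. Of all genes, 14.5% were called higher and 15.6% lower in MM13 than in SM, 18.9% higher in MM16 and 20.4% in FP, and 13.0% rose with stage.

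Of the 6 receptors, 4 were called higher in FP, 5 in MM16 and 1 in MM13 than in SM (all genes, 20.4%, 18.9% and 14.5%). The 1 of 6 in MM13 is near the 14.5% of all genes called higher there. These counts were not tested against each other, and salivary mesenchyme was sampled at E13.5 alone, so the E16.5 comparisons differ in stage as well as in tissue. Kdr had 5935, 6396, 6918, 5648 and 6712 normalized counts in FP, 5569, 5579.8, 5902, 4211 and 5906 in MM16, 4552, 4819.9, 3769, 3568 and 3693 in MM13, 3478, 3432, 3612, 3592 and 4049 in VM, and 3703, 2826, 3589, 3730.0 and 3727 in SM. The tissues overlapped with their neighbours at each step, and Kdr was called against SM in FP (0.85 ± 0.10, adjusted p = 4.1e-08) and MM16 (0.63 ± 0.10, adjusted p = 5.0e-06) but not in MM13 (0.22 ± 0.10, 95% interval 0.01 to 0.42). Leaving out SM replicate 2, the lowest of that tissue, ended the call in MM16, at 0.56. Tek had 3514, 3614, 3799, 3617 and 4056 normalized counts in FP, 2358, 2275, 2260.1, 1949 and 2101 in MM16, 1387, 1312, 1149, 1015 and 1387 in MM13, 871, 900.4, 874, 756 and 939 in VM, and 856, 889.5, 878, 784 and 924 in SM. Tek was ordered FP, MM16, MM13 and then VM with no overlap between any of these, and VM and SM did overlap. It was higher in FP than in MM16 (0.77 ± 0.08, adjusted p = 2.9e-08) and rose with stage (0.81 ± 0.08, adjusted p = 9.3e-09), and it was the receptor with the largest difference between FP and SM (2.1 ± 0.08).

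Aplnr, the receptor of apelin in venous and sprouting endothelium, was the receptor called in MM13 against SM (1.24 ± 0.11, adjusted p = 3.8e-10). Aplnr had 4759.9, 4819.6, 6499, 5389 and 6455 normalized counts in FP, 5029, 5096, 5429, 4285 and 5049.7 in MM16, 4089, 3752, 2847, 2742 and 3186 in MM13, 2827, 2841, 3518, 2707 and 3336 in VM, and 1498, 1397, 1344, 1386 and 1403 in SM. The E16.5 pools were above the MM13 and VM pools, and the SM pools were below all of these. With stage Aplnr rose by 0.58 ± 0.11 (adjusted p = 8.0e-05), a call that held in 3 of 10 fits with 1 pool left out and was lost without any of MM13 replicates 3, 4 and 5 or MM16 replicates 1, 2, 3 and 5. Tie1, the partner of TIE2, was called against SM in both E16.5 tissues, with 0.89 ± 0.08 in FP and 0.86 ± 0.08 in MM16. Flt1, the decoy receptor for VEGF-A, and Notch4, a Notch receptor of arteries, rose with stage by 0.67 ± 0.10 and 0.78 ± 0.16. All 6 receptors had a log2 fold change above 0 with stage, and 4 were called (all genes, 13.0% called higher).

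The transcription factors split into those with a step between SM and the rest and those without. Erg, the ETS factor that keeps endothelial identity, averaged 699 ± 201 in FP, 668 ± 92.2 in MM16, 990.2 ± 59.5 in MM13, 1078 ± 158 in VM and 192 ± 20.8 in SM (SD, n = 5 each). Against SM it had 2.36 ± 0.16, adjusted p = 2.0e-12, in MM13, the second largest difference of the 40 genes there after Lyve1. Its mean was lower in MM16 than in MM13 (-0.57 ± 0.15, adjusted p = 0.0025), just under the fold a call needed, and it was called lower without MM13 replicate 1 or 4 or MM16 replicate 1, 3 or 4. The stage difference of Cdh5 was 0.41 ± 0.10. Fli1, a second ETS factor that blood cells express too, had 1.83 ± 0.10 in FP, 1.29 ± 0.10 in MM16 and 1.28 ± 0.10 in MM13 against SM. Ets1 had at most 0.19 ± 0.08 there. It was instead lower in MM13 than in VM (-0.79 ± 0.08, adjusted p = 1.1e-07), with 3966 ± 371 normalized counts in MM13 and 6848 ± 681 in VM, the highest of the 5 tissues. Ets1 is also known from mesenchymal and lymphoid cells.

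Of the SOXF factors, which act in vessel growth, Sox17 is the one tied to arteries. Sox17 had 245, 361, 323, 332 and 348 normalized counts in FP, 331, 383, 479, 305 and 311 in MM16, 340.3, 203, 206, 234 and 217 in MM13, 254, 234, 262, 219 and 289.9 in VM, and 129.9, 159, 148, 132 and 162 in SM. The SM pools lay below all others. MM13 replicate 1 was within the range of both E16.5 tissues, and VM replicates 1, 3 and 5 were within that of FP. Sox17 was higher than in SM in FP (1.14 ± 0.15), MM16 (1.31 ± 0.15) and MM13 (0.71 ± 0.15), the last being lost without MM13 replicate 1 (0.56). With stage it rose by 0.59 ± 0.15 (adjusted p = 0.0015), a call kept in 4 of 10 fits with 1 pool left out and lost without any of MM13 replicates 2 to 5 or MM16 replicates 2 and 3. Sox18, which acts upstream of Prox1 in lymphatic cells, was called against SM in all 3 mammary tissues, with 1.14 ± 0.16 in FP, 1.0 ± 0.16 in MM16 and 0.62 ± 0.16 in MM13. Sox7 rose with stage (0.64 ± 0.13) and was not called against SM. The Sox7 call was lost without MM13 replicate 5 or MM16 replicate 5, and that of Sox18 in MM13 without MM13 replicate 1 or 4 or SM replicate 2. Tal1, a factor shared by endothelium and blood progenitors, was higher than in SM by 0.91 ± 0.14 in FP, 0.60 ± 0.14 in MM16 and 0.71 ± 0.14 in MM13, and the call in MM16 was lost without SM replicate 1, 2 or 3 or MM16 replicate 3.

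**Figure D3:**
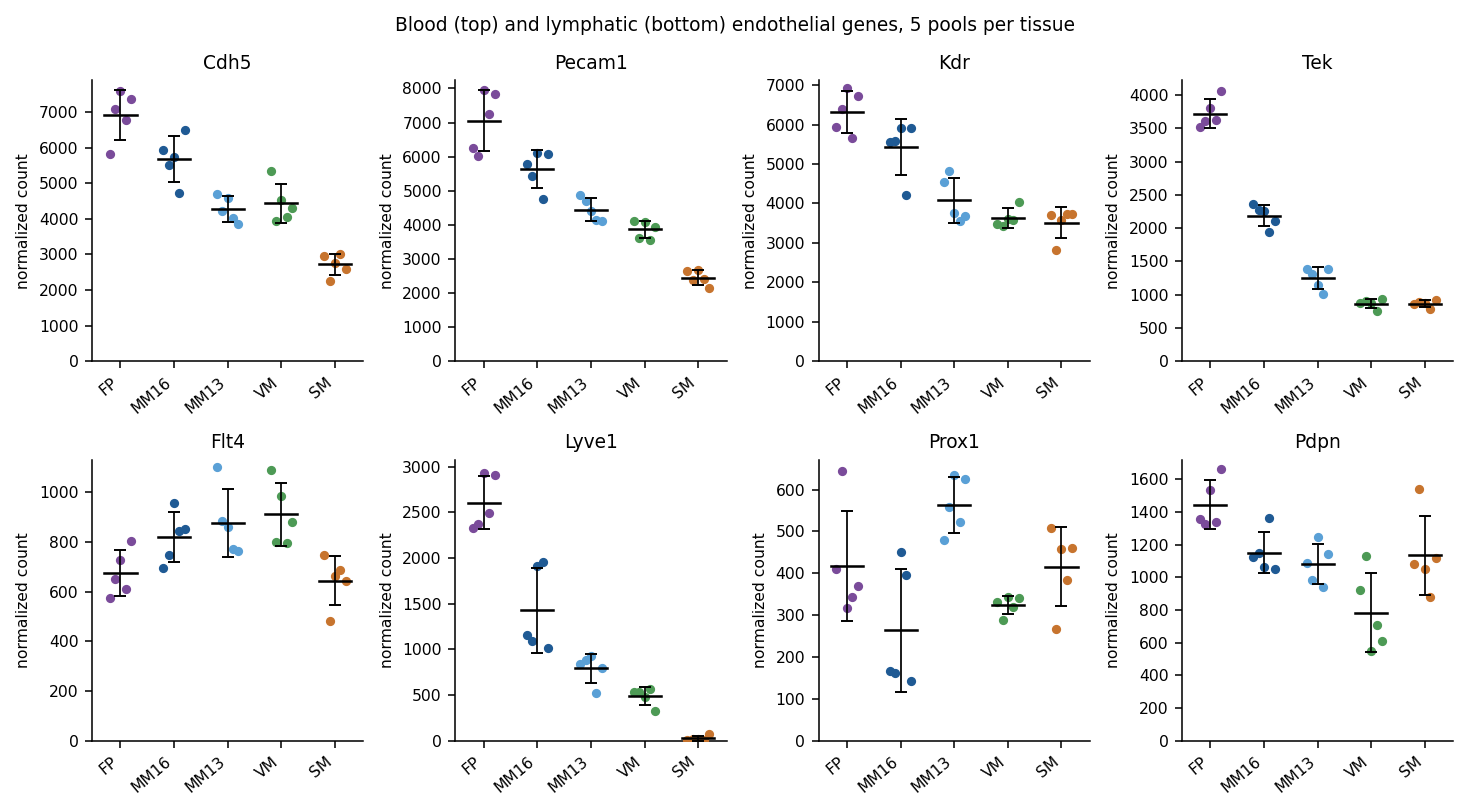
Normalized counts (vertical axes, linear, from 0) of 4 blood endothelial genes (top) and the 4 lymphatic genes (bottom) in 5 tissues (horizontal axis). Points are pools, long bars means and error bars SD over 5 pools. The means of Pecam1 and Lyve1 fall at each step from FP to SM, those of Cdh5 are nearly level in MM13 and VM and those of Tek in VM and SM, whereas the pools of Flt4 overlap between neighbouring tissues and MM16 splits into 3 low and 2 high pools for Prox1.

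The 4 lymphatic genes did not move together. Lyve1, which encodes the hyaluronan receptor of lymphatic capillaries and is also known from embryonic macrophages, had the largest differences of the 40 genes against SM. Lyve1 had 2326, 2368, 2929, 2494 and 2903 normalized counts in FP, 1160.0, 1091, 1914, 1950.5 and 1014 in MM16, 842, 884, 927, 521 and 796 in MM13, 533, 538, 479, 565 and 330.5 in VM, and 8.90, 18.9, 16.4, 10.0 and 68.3 in SM. The FP pools were above all others, MM16 was above MM13, MM13 and VM overlapped, and SM was far below, with replicate 5 above its other 4 pools. Against SM, Lyve1 had 6.75 ± 0.39 in FP, 5.88 ± 0.38 in MM16 and 5.03 ± 0.37 in MM13, with adjusted p of at most 9.3e-11. Without SM replicate 5 the difference became 7.58 in FP, 6.71 in MM16 and 5.86 in MM13. It rose with stage (0.85 ± 0.28, adjusted p = 0.017) and was higher in FP than in MM16 (0.87 ± 0.28, adjusted p = 0.019). Each of these calls held in 7 of 10 fits that left out 1 pool. The stage call was lost without MM13 replicate 4 or MM16 replicates 3 or 4, and the call between FP and MM16 without MM16 replicates 1, 2 or 5.

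The summed level of 15 macrophage and leukocyte genes moved with Lyve1 between tissues, at 669.9 to 862 CPM in FP, 659 to 751 CPM in MM16, 377 to 442 CPM in MM13, 333 to 407 CPM in VM and 89.6 to 122 CPM in SM. None of the 15 was at 0 in all pools of a tissue. Of them, 14 were higher in FP, 15 in MM16 and 13 in MM13 than in SM, and 13 rose with stage (all genes, 20.4%, 18.9%, 14.5% and 13.0%). Mrc1, the mannose receptor of tissue macrophages, which lymphatic endothelium also expresses, averaged 7857 ± 592 normalized counts in FP, 6288 ± 584 in MM16, 4052 ± 231 in MM13, 3336 ± 323 in VM and 557 ± 108 in SM. Between FP and MM16, 0 of the 15 were called by edgeR's quasi-likelihood test and 0 by DESeq2, with an unadjusted p under 0.05 for 1 upwards and 1 downwards. Of all genes, 6.68% were called higher and 7.46% lower there, and 0 of 15 is near these shares. In MM16 the sums of these genes in replicates 3 and 4, the pools high in Lyve1, were 751 and 731 CPM, against 659 to 738 CPM in the other 3 pools. The part of macrophages and leukocytes in the Lyve1 differences was not tested.

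Prox1, the transcription factor that sets and keeps lymphatic identity, showed another order. Prox1 had 410.1, 645, 318, 342 and 369 normalized counts in FP, 165, 162, 451, 396 and 143 in MM16, 478, 559, 636, 522 and 624 in MM13, 331, 288, 343, 318 and 341 in VM, and 508, 268, 458, 384 and 461 in SM. MM13 had the highest mean, and in MM16 replicates 1, 2 and 5 lay below every pool of the other tissues while replicates 3 and 4 did not. Prox1 fell with stage in mammary mesenchyme, with -1.10 ± 0.26, adjusted p = 0.0015, and this call held in each of 10 fits with 1 pool left out (-1.39 to -0.95). It was higher in MM13 than in VM (0.80 ± 0.26, adjusted p = 0.04), without overlap, but this call held only without MM13 replicate 1 and was lost without each of the other 9 pools, at adjusted p up to 0.084. In MM16 it was lower than in SM (-0.66 ± 0.26, adjusted p = 0.031), a call held in 4 of 10 such fits and lost without any of SM replicates 1, 3 and 5 or MM16 replicates 1, 2 and 5. Prox1 is also known from neurons and muscle. The summed level of 12 peripheral neuron and Schwann cell genes was 57.4 to 94.3 CPM in FP, 67.5 to 80.1 CPM in MM16, 109.8 to 134 CPM in MM13, 89.1 to 115 CPM in VM and 371 to 440.0 CPM in SM, and FP replicate 2, the pool with the highest Prox1 count, had 7074 CPM of skeletal muscle genes, the most of any pool. The part of nerve and muscle in the Prox1 values was not tested.

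Flt4, the receptor of VEGF-C on lymphatic and on sprouting blood endothelium, was called in no comparison. Flt4 had 575, 653, 729, 612 and 805 normalized counts in FP, 696, 748, 955, 843 and 853 in MM16, 1101, 884, 861, 773 and 763 in MM13, 1089.5, 801, 987, 797 and 882 in VM, and 749, 483, 662, 688 and 641 in SM. Neighbouring tissues overlapped at each step, and Flt4 was called in none of the 6 comparisons by edgeR's quasi-likelihood test, although 2 had an adjusted p under 0.05, with 0.44 ± 0.12, adjusted p = 0.0033 in MM13 and 0.35 ± 0.12, adjusted p = 0.017 in MM16 against SM. Pdpn, a mucin of lymphatic endothelium that mesenchyme and epithelium also express, was not called either, and its mean was 1444 ± 149 in FP, 1150.1 ± 125 in MM16, 1080.4 ± 124 in MM13, 784 ± 239.9 in VM and 1136 ± 243 in SM (SD, n = 5 each). The 95% interval of its difference between MM16 and SM was -0.31 to 0.34.

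Because the blood endothelial genes as a whole were higher in some tissues, 6 genes of vessel type were also set against Cdh5 in the same pool. They were Flt4, Prox1, Lyve1, Plvap, Emcn and Dll4, and the difference in log2 ratio was tested with an exact two-sided permutation test over pools, adjusted over 36 tests. With 5 against 5 pools the smallest p possible is 0.0079, and the smallest adjusted p reached here was 0.0159. At 0.05, 23 of 36 passed. Flt4 was 9.74% ± 0.75 of Cdh5 in FP, 14.6% ± 2.57 in MM16, 20.4% ± 1.86 in MM13, 20.5% ± 0.73 in VM and 23.6% ± 1.61 in SM (SD, n = 5 each). Relative to Cdh5 it fell in FP against MM16 (-0.57 ± 0.12) and in MM16 against MM13 (-0.50 ± 0.13), both at adjusted p = 0.0159 by the exact test, and against SM it was lower in all 3 mammary tissues, with -1.28 ± 0.07 in FP, -0.71 ± 0.12 in MM16 and -0.21 ± 0.07 in MM13 (adjusted p = 0.0497 for the last).

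Prox1 was 6.08% ± 1.99 of Cdh5 in FP, 4.83% ± 3.02 in MM16, 13.3% ± 2.16 in MM13, 7.38% ± 0.69 in VM and 15.2% ± 2.74 in SM. In log2 ratio it was lower than in SM by -1.36 ± 0.23 in FP and -1.86 ± 0.42 in MM16 (first minus second tissue), and higher in MM13 than in VM by 0.84 ± 0.12. Lyve1 went the other way, at 37.7% ± 2.67 of Cdh5 in FP, 25.9% ± 10.9 in MM16, 18.5% ± 3.33 in MM13, 11.2% ± 2.67 in VM and 0.94% ± 0.97 in SM. Its ratio in SM was below those of the 3 mammary tissues by exact tests (adjusted p = 0.0159 each), but once set against Cdh5 neither its stage difference (0.40 ± 0.29, adjusted p = 0.276 by the exact test) nor that between FP and MM16 (0.63 ± 0.27, adjusted p = 0.11 by the exact test) passed. So Flt4 and Prox1 were lower relative to Cdh5 in the E16.5 tissues than in SM, and Lyve1 was higher. Lower ratios than in SM were not limited to lymphatic genes, as Emcn had them in both E16.5 tissues and Plvap and Dll4 in FP.

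Among the blood genes, Plvap was 9.02% ± 0.72 of Cdh5 in FP, against 15.6% ± 1.36 in MM16 (-0.79 ± 0.07 in log2 ratio, adjusted p = 0.0159 by the exact test), and 17.0% ± 1.78 in MM13, 16.3% ± 1.57 in VM and 16.8% ± 1.59 in SM. Against SM, too, the ratio of Plvap was lower in FP (-0.90 ± 0.08). Emcn was higher relative to Cdh5 in MM13 than in VM (0.43 ± 0.06). Its ratio fell with stage (-0.27 ± 0.09), and against SM it was lower in MM16 (-0.43 ± 0.11) and FP (-0.64 ± 0.11). Dll4, relative to Cdh5, rose with stage (0.52 ± 0.14, adjusted p = 0.0286 by the exact test) and was lower in FP than in MM16 (-0.64 ± 0.15). Against SM the ratio of Dll4 was lower in FP (-0.89 ± 0.15) and MM13 (-0.77 ± 0.14), while its difference in MM16 (-0.25 ± 0.10) did not pass.

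**Figure D4:**
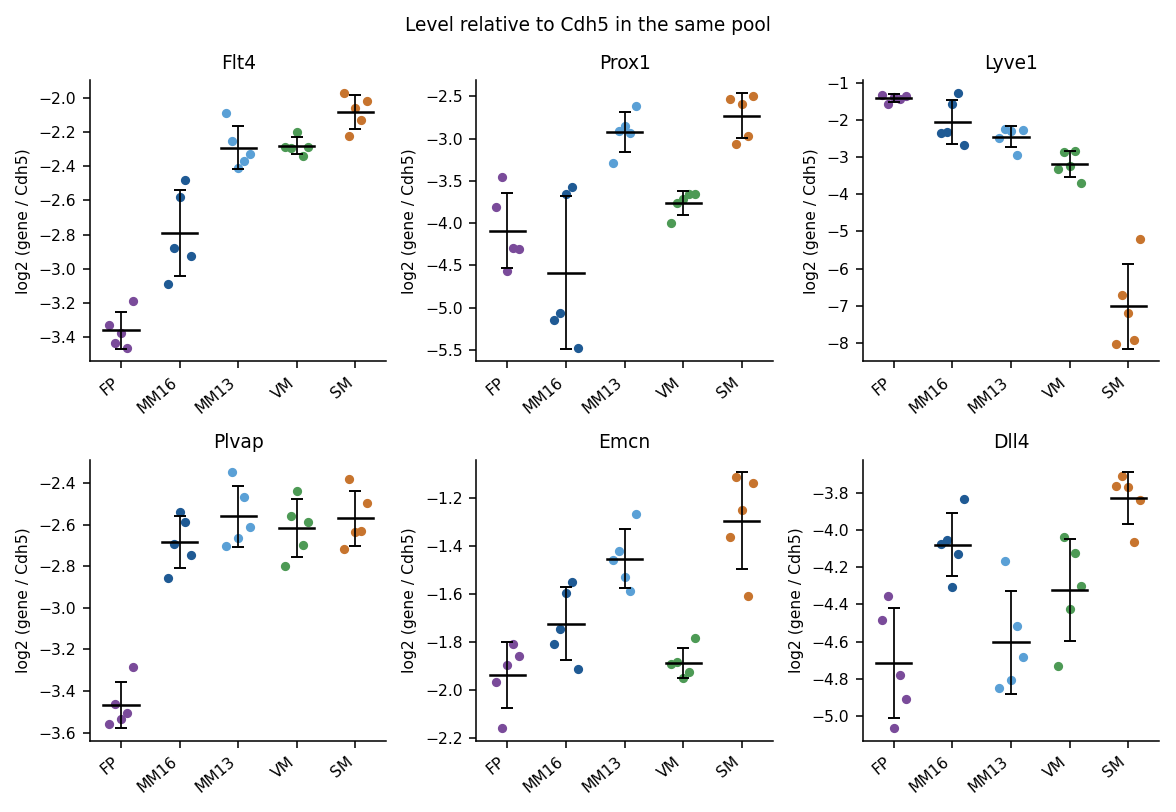
Log2 ratio of 6 genes to Cdh5 in the same pool (vertical axes, each with its own range and not from 0) in 5 tissues (horizontal axis). Points are pools, long bars means and error bars SD over 5 pools. Flt4 is lowest in FP and nearly level in MM13 and VM, Lyve1 steps down from FP to SM, and Plvap is lowest in FP.

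Of the 6 ligands, Vegfa, which drives sprouting through Kdr, was called in no comparison. Vegfa had 1819, 1920.4, 2110.2, 1950.2 and 2351 normalized counts in FP, 1899, 2019, 1976, 1642 and 2040.5 in MM16, 1364, 1687, 1613, 1539.9 and 1419 in MM13, 1519, 1264, 1440.0, 1383 and 1402 in VM, and 1417, 1665, 1744, 1551 and 1411 in SM. Neighbouring tissues overlapped throughout, and its largest difference in edgeR's quasi-likelihood test was 0.38 ± 0.08 in FP against SM (adjusted p = 1.8e-04). Vegfc, which drives lymphatic growth through Flt4, was called in 4 of 6. Vegfc had 168, 196, 173, 182 and 176 normalized counts in FP, 282, 324, 416, 324 and 332 in MM16, 738, 584, 613, 706 and 809 in MM13, 855, 916, 1082, 1122 and 1021 in VM, and 344, 203, 303, 213 and 327 in SM. The order was VM, MM13, MM16 and SM, and FP, with overlap only between MM16 and SM. Vegfc fell with stage (-1.04 ± 0.13, adjusted p = 5.5e-07) and was lower again in FP than in MM16 (-0.91 ± 0.14, adjusted p = 9.6e-06). It was higher in MM13 than in SM (1.31 ± 0.13) and lower in FP than in SM (-0.63 ± 0.14, adjusted p = 2.2e-04), the last being lost without SM replicate 1 or 5. Thus Vegfc was lowest in the tissue with the highest Lyve1, Cdh5 and Pecam1 counts.

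Angpt1, the TIE2 agonist made by perivascular and mesenchymal cells, was the 1 gene of the 40 called in all 6 comparisons. Angpt1 had 1328, 827, 1189, 1187 and 1223 normalized counts in FP, 407, 395, 433, 373 and 288 in MM16, 683, 656, 744, 599 and 743 in MM13, 241, 307, 226, 197 and 222 in VM, and 250, 187, 159, 174 and 218 in SM. FP was above MM13 and MM13 above MM16, with no overlap, although FP replicate 2 was well below the other 4 pools. Angpt1 was higher in FP than in MM16 (1.60 ± 0.14, adjusted p = 1.2e-09), fell with stage in mammary mesenchyme (-0.85 ± 0.14, adjusted p = 1.3e-05) and was higher in MM13 than in VM (1.52 ± 0.14, adjusted p = 1.0e-08). Against SM it was higher in FP (2.54 ± 0.14), MM16 (0.94 ± 0.14) and MM13 (1.79 ± 0.14). Its receptor Tek was likewise highest in FP, but rose where Angpt1 fell, between MM13 and MM16.

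Angpt2, made by endothelium and in many settings an antagonist of Angpt1 at TIE2, was low in the E13.5 skin tissues. Angpt2 had 357, 292, 262, 344 and 279 normalized counts in FP, 98.3, 114, 215, 172 and 83.3 in MM16, 60.6, 80.5, 88.1, 99.9 and 73.6 in MM13, 68.2, 53.4, 61.3, 53.6 and 50.04 in VM, and 181, 174, 212, 186 and 168 in SM. FP was above all other tissues, and the SM pools were above those of MM13 and VM. It was higher in FP than in MM16 (1.17 ± 0.19, adjusted p = 2.8e-05) and than in SM (0.74 ± 0.19), and lower in MM13 than in SM (-1.19 ± 0.19, adjusted p = 9.3e-06). It rose with stage (0.75 ± 0.20, adjusted p = 0.0025), a call lost without MM16 replicate 3 (0.53). Apln, the apelin ligand of sprouting tip cells, was higher than in SM in FP (1.95 ± 0.12), MM16 (1.60 ± 0.12) and MM13 (2.01 ± 0.12), as was its receptor Aplnr. Dll4, the Notch ligand of tip cells and arteries, rose with stage (0.95 ± 0.14, adjusted p = 5.5e-06) and was higher in MM16 than in SM (0.84 ± 0.14).

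**Figure D5:**
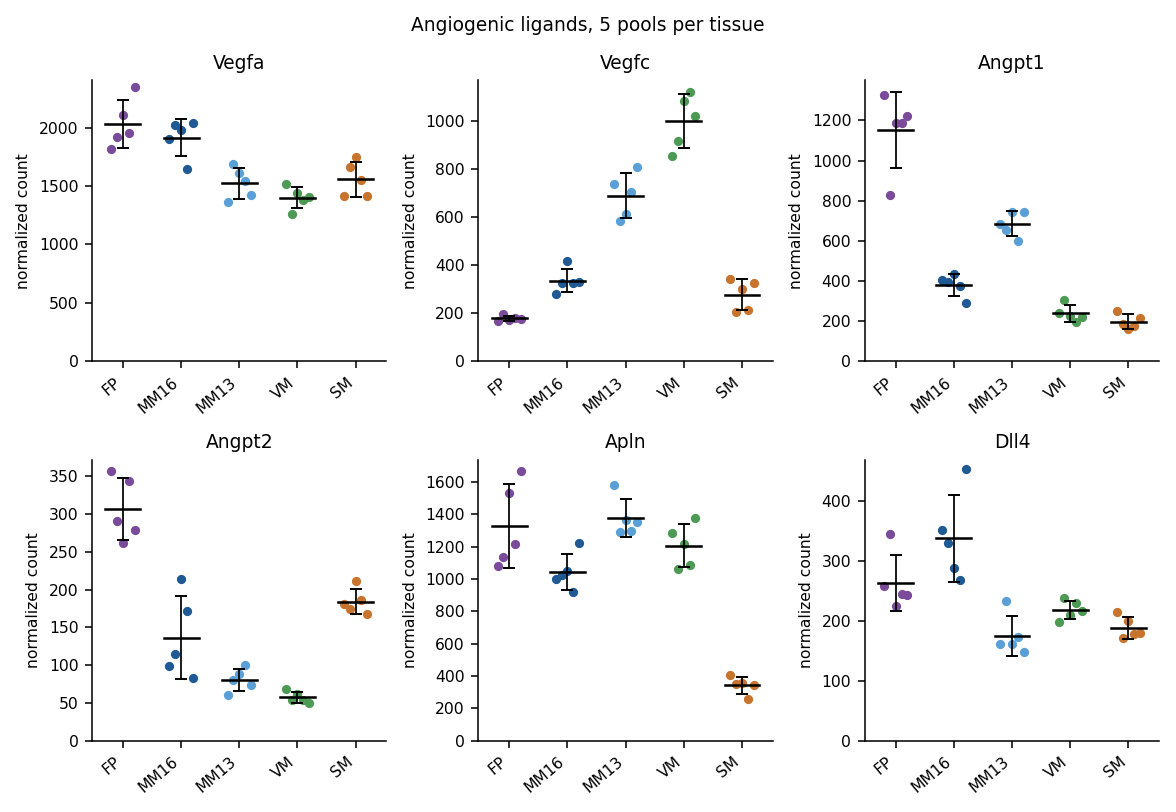
Normalized counts (vertical axes, linear, from 0) of the 6 angiogenic ligands in 5 tissues (horizontal axis). Points are pools, long bars means and error bars SD over 5 pools. Angpt1 and Angpt2 are highest in FP, Vegfc is highest in VM and lowest in FP, and Apln is low in SM.

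Further genes of the same pathways and of other cells were taken from lists, whose counts stand against the shares of all genes called. These were 20.4% higher and 19.1% lower in FP against SM, 18.9% and 16.0% in MM16 against SM, 14.5% and 15.6% in MM13 against SM, 13.0% and 6.76% with stage, 6.68% and 7.46% in FP against MM16, and 3.89% and 2.61% in MM13 against VM. Of 20 other VEGF, angiopoietin and guidance genes, 6 were higher and 6 lower in FP than in SM, 9 and 4 in MM16, and 5 and 5 in MM13. The 4 of 20 lower in MM16, for one, are near the 16.0% of all genes. With stage 5 rose and 3 fell, 1 was higher and 5 were lower in FP than in MM16, and 4 and 2 differed in that way between MM13 and VM. Vegfd, the other ligand of VEGFR3, was higher than in SM in FP (4.61 ± 0.25), MM16 (5.04 ± 0.26) and MM13 (5.32 ± 0.26), with 486 ± 35.8 normalized counts in FP, 655 ± 56.6 in MM16, 795 ± 74.4 in MM13 and 19.6 ± 16.4 in SM. Ccbe1, which helps to activate VEGF-C, was lower in FP than in MM16 (-1.93 ± 0.25) and than in SM (-3.06 ± 0.25), as Vegfc was. Calcrl, the receptor that Ramp2 pairs with, rose with stage (1.46 ± 0.10), as Ramp2 did. Apela, the second ligand of Aplnr, fell with stage (-1.76 ± 0.24) and was lower still in FP (-5.95 ± 0.42 against MM16), where it averaged 2.14 ± 3.52 normalized counts, against 143 ± 62.8 in MM16. Nrp2, a co-receptor of VEGF-C that mesenchyme and nerve also express, was lower in MM16 than in SM (-2.43 ± 0.12).

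Of 16 genes of Notch signalling and of arterial and venous endothelium, 15 were tested. 10 of them rose with stage, among them Gja4 and Gja5, the connexins of arterial endothelium, by 1.13 ± 0.13 and 1.07 ± 0.22, beside the members Dll4, Notch4 and Sox17. The venous factor Nr2f2 averaged 668 ± 88.3 normalized counts in MM13 and 1214 ± 208 in MM16, so the genes with a higher mean at E16.5 were not arterial alone. 3 were higher in MM13 than in VM, with Gja5 at 1.07 ± 0.23, Gja4 at 1.03 ± 0.14 and the venous factor Nr2f2 at 0.66 ± 0.13. In FP 1 was higher and 3 were lower than in MM16, the arterial factor Hey2 falling most (-2.58 ± 0.20). Against SM, 6 were higher and 3 lower in FP, 8 and 3 in MM16, and 2 and 4 in MM13. Those lower included Nr2f2 (-2.96 ± 0.14 in FP) and, in the same tissue, Efnb2 (-3.53 ± 0.21), the ephrin of arteries, which mesenchyme also expresses. Nr2f2 averaged 1119 ± 234 in FP and 8735 ± 898 in SM, the tissue with the lowest sum of blood endothelial genes. How much of the Nr2f2 counts came from venous endothelium and how much from other cells was not tested. The part of arterial endothelium in the Hey2 and Efnb2 counts was not tested either.

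Of 22 other blood endothelial genes, 21 were tested, and 16 were higher and 2 lower in FP than in SM, 17 and 1 in MM16 and 11 and 2 in MM13. Those higher included Clec14a, an endothelial lectin (1.71 ± 0.09 in FP and 1.61 ± 0.09 in MM16), and those lower in MM13 included Tspan18 (-1.51 ± 0.09). 6 rose with stage, 2 were higher and 1 lower in FP than in MM16, and 0 were called between MM13 and VM by edgeR or DESeq2, with 4 upwards at an unadjusted p under 0.05. Gpr182, an atypical chemokine receptor of endothelium, was higher in FP than in MM16 (1.41 ± 0.22), and Exoc3l2 was lower there (-1.50 ± 0.23). Of 14 other lymphatic genes, 13 were tested, and Mmrn1, a defining one, was listed at 0 in all pools. Against SM 4 were higher and 3 lower in FP, 6 and 2 in MM16, and 5 and 2 in MM13, and the counts lower than in SM were near the 19.1%, 16.0% and 15.6% of all genes. With stage 7 rose, 3 were lower in FP than in MM16, and 1 was higher and 1 lower in MM13 than in VM. Stab1, a scavenger receptor of lymphatic endothelium and macrophages, was higher in FP than in SM (2.05 ± 0.13), as Lyve1 was. Sned1, of the same list, went the other way in MM13, where it was lower than in SM (-3.85 ± 0.25). Thy1, which was lower in FP than in MM16 (-2.99 ± 0.20), is also known from fibroblasts and neurons.

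Genes of the other cells that a pool can hold were counted in the same way, in the comparisons with any call. The 16 pericyte and smooth muscle genes gave 13 higher and 1 lower in FP against SM, 12 higher in MM16 against SM, 4 higher and 5 lower in MM13 against SM, 12 higher with stage, 3 higher and 2 lower in FP against MM16, 3 higher in MM13 against VM. One of the 3 higher in FP than in MM16 was Des, named after its values were seen, which skeletal muscle also expresses and which is on the skeletal muscle list too. Des averaged 5229 ± 2768 normalized counts in FP and 995 ± 395 in MM16. The 11 erythroid genes gave 7 higher and 4 lower in FP against SM, 7 higher and 4 lower in MM16 against SM, 7 higher and 1 lower in MM13 against SM, 6 higher and 3 lower with stage, 2 lower in FP against MM16, and those lower in the E16.5 tissues included the embryonic globin genes Hbb-y and Hbb-bh1, which like Mrc1 were picked after their values were seen. The 8 megakaryocyte and platelet genes tested gave 1 higher and 1 lower in FP against SM, 2 higher and 1 lower in MM16 against SM, 1 higher in MM13 against SM, 1 higher and 1 lower with stage, 1 lower in FP against MM16. Mesenchyme itself differed, with 7 higher and 3 lower in FP against SM, 8 higher and 1 lower in MM16 against SM, 6 higher and 1 lower in MM13 against SM, 6 higher with stage, 8 lower in FP against MM16, 3 higher and 1 lower in MM13 against VM among 10 genes. The 10 skeletal muscle genes gave 10 higher in FP against SM, 7 higher in MM16 against SM, 2 higher in MM13 against SM, 7 higher and 2 lower with stage, 10 higher in FP against MM16. The 12 epithelial genes gave 4 higher and 1 lower in FP against SM, 8 higher and 1 lower in MM16 against SM, 2 lower in MM13 against SM, 9 higher with stage, 5 lower in FP against MM16. The 12 nerve genes gave 1 higher and 7 lower in FP against SM, 1 higher and 6 lower in MM16 against SM, 3 higher and 6 lower in MM13 against SM, 7 lower with stage, 1 higher and 1 lower in FP against MM16, 2 higher in MM13 against VM. The part of these cells in the endothelial differences was not tested.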

How the data were processed

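RNA-Seq was done on 25 pools of 5 tissues, 5 pools each. The authors deposited estimated counts for each gene, from Salmon 0.99.0 with mm10, after quality control (FastQC 0.11.8, MultiQC 1.9), trimming (Trimmomatic 0.39) and removal of ribosomal reads. The annotation release and the use of strand are not given in the sources used here, and the deposited values are whole numbers. Reads of overlapping genes or close paralogs are divided by Salmon's model. Of 35880 genes, 446 had no symbol in the gene name table and held 0.103% of counts.

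Counts were scaled by TMM, and edgeR 4.0.16 (R 4.3.3) was run with its quasi-likelihood test, robust dispersions and 1 mean per tissue over all 25 samples. This left 20 residual degrees of freedom, and p-values were adjusted by Benjamini-Hochberg over 17657 genes. The SE was taken from the test, as the size of the log2 value over the square root of F. Normalized counts are counts over the effective library size, times the mean of these sizes. Levels between genes are CPM per kilobase of union exon (GENCODE M21). Ratios to Cdh5 used CPM with a pseudocount of 0.1. The fits and permutation tests were tested on simulated data. Members, lists and comparisons were chosen with earlier results of these data known. Values in each pool are given for 10 members named by symbol and for those called in 4 or more comparisons. From each of 4 vessel lists up to 3 called genes per comparison could be named, those with the largest change and a mean normalized count above 100. Python 3.11.15, pandas 2.3.3, numpy 2.4.6, scipy 1.17.1 and matplotlib 3.10.9 were used for the rest. The alternatives were DESeq2 1.42.0 and its size factors, no filter, only the 2 tissues compared, no mean count threshold, the replicate number as a block, each pool left out in turn, and for the ratios another denominator or pseudocount.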

Additional observations from a re-analysis of the deposited data

Results flagged for a closer look

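In 13 of 200 sets of 5 pools, 1 for each gene and tissue, the most distant pool was further from its neighbour than Dixon's test at 95% allows. That is 6.5%, and chance gives about 1 in 20. The normalized counts were as follows. Lyve1 was high in SM replicate 5 (68.3, the other 4 pools 8.90 to 18.9). In the fat pad precursor, replicate 2 was high for Prox1 (645, the other 4 pools 318 to 410.1), Dll4 (344, the other 4 pools 225 to 257) and Sox18 (381, the other 4 pools 265 to 278), and low for Angpt1 (827, the other 4 pools 1187 to 1328).

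MM16 replicate 4 was low for Kdr (4211, the other 4 pools 5569 to 5906), Flt1 (1129.9, the other 4 pools 1530.4 to 1658) and Ets1 (3474, the other 4 pools 4594 to 4702), and replicate 3 was high for Tal1 (336, the other 4 pools 243 to 254). In MM13, replicate 1 was high for Cd34 (12463, the other 4 pools 10068 to 10544), Sox17 (340.3, the other 4 pools 203 to 234) and Apln (1582, the other 4 pools 1292 to 1364). Kdr was low in SM replicate 2 (2826, the other 4 pools 3589 to 3730.0). Refitted without the distant pool, 4 of 35 comparisons changed their call, namely Kdr, Flt1 and Tal1 in MM16 against SM, at 0.56, 0.60 and 0.49, and Sox17 in MM13 against SM. What sets these pools apart was not tested.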

How the results depend on the processing

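No call changed direction under any alternative. Members called higher in MM13 than in VM numbered 2, against 1 with no expression filter, 3 in the fit of the 2 tissues alone and 1 to 2 with a pool left out, and those called lower numbered 1, against 1 to 2 with a pool left out (2 without MM13 replicate 5 or VM replicate 1, when Vegfc was added). The 1 member lower in MM16 than in SM, Prox1, became 0 in the fit of the 2 tissues alone and 0 to 2 with a pool left out, and the 1 lower in FP than in SM, Vegfc, 0 to 1. With a pool left out, members called higher numbered 20 to 22 in MM13, 27 to 31 in MM16 and 26 to 28 in FP against SM, 10 to 15 with stage and 4 to 7 in FP against MM16. Lower calls numbered 2 in MM13 against SM, 3 to 4 with stage and 2 in FP against MM16.

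Of 240 gene and comparison pairs, DESeq2 size factors and dropping the mean count threshold changed no call, the DESeq2 Wald test changed 1 (Prox1 became higher in FP than in MM16), the fit of the 2 tissues alone 3, and dropping the expression filter 9, the last lowering the rises with stage to 11. Of the 36 ratio tests 23 passed, against 29 with Pecam1 as denominator, 24 with a pseudocount of 1 CPM, 18 with no denominator and 19 to 25 with a pool left out. The labels do not say whether equal replicate numbers pair the pools. Of 30 same-numbered pairs, 5 had deviations correlated above 0.1 (-0.25 to 0.28). Pools of unlike number were not compared in this way, so the correlations cannot decide it. With the replicate block, members called higher in MM13 than in VM were 1, Prox1 being lost, and no other call changed, and 0 of the 36 paired ratio tests passed, whose smallest p with 5 pairs is 0.0625. With TMM-scaled CPM the mean blood endothelial sum was 1126 CPM in SM, against 1191 CPM by library total, and in the other 4 tissues it moved by less than 1 SD. The lowest mean count of the 40 genes was that of Lyve1 in SM, so its fold changes against that tissue rest on few counts.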
